A study of Mus musculus with 12 samples.

Results

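AP-1 and early-response factors were examined as 10 genes chosen by symbol, Jun, Junb, Jund, Fos, Fosb, Fosl2, Atf3, Egr1, Klf2 and Klf6. All 10 symbols were found among the 12151 genes of the expression table. RNA was measured in 12 libraries of mouse B cell acute lymphoblastic leukemia (B-ALL) cells, in 4 groups of 3 replicates. The groups were ERT2 WT and Cre-ERT2 WT, and ERT2 KO and Cre-ERT2 KO. All cells were bone marrow pre-B cells of mice 6 to 12 weeks old, transformed with BCR-ABL1, and all carried the Ctnnb1Ex3fl/+ genotype, meaning loxP sites around exon 3 of the β-catenin gene on 1 chromosome copy. WT cells had received Cas9 with nontargeting guides and KO cells had received Cas9 with guides against Ikzf1 and Ikzf3, the genes of Ikaros and Aiolos, and lines were then grown from single cells. The vectors encoded GFP with either ERT2, an estrogen receptor domain that binds 4-hydroxytamoxifen, or Cre-ERT2, whose Cre removes exon 3 and thereby stabilizes β-catenin, and GFP+ cells were sorted. The protocol names 1 day after addition of 4-hydroxytamoxifen, in wording written for chromatin experiments. Whether replicates are separate clones, cultures or days is not stated, so p-values measure only the spread between these libraries. No library combined Cre-ERT2 with an unfloxed Ctnnb1, so Cre activity and stabilized β-catenin cannot be told apart. The clone behind each library is not stated either. Editing and differences between lines grown from single cells therefore cannot be told apart in KO against WT comparisons.

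AP-1 is a family of dimers of basic leucine zipper (bZIP) proteins. JUN proteins pair with each other, with FOS proteins or with ATF proteins, and the dimer decides which DNA element is bound and how strongly transcription is driven. JUN itself is a strong activator, whereas JUNB and JUND can temper its activity in many cells. Many of these genes are early-response genes, which are transcribed within minutes of a growth factor, antigen receptor or stress signal through MAP kinases, and their mRNAs are short-lived. EGR1, KLF2 and KLF6 are zinc finger factors, of which EGR1 and KLF6 belong to the same early wave. KLF2 is known in lymphocytes for its part in quiescence and trafficking, and Ikaros is a zinc finger repressor and activator needed for the pre-B cell stage.

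Values are log2 expression normalized between libraries by the authors, and a difference is a difference of log2 values. Differences were fitted with limma over all genes and called at a Benjamini-Hochberg adjusted p under 0.05 over 12151 genes. Library medians lay between 9.06 and 9.11. Sequencing depth is unknown because no counts were given. The targeted genes were read as a check of the labels. Ikzf1 mRNA was higher in ERT2 KO than in ERT2 WT libraries (14.75 against 13.74) and Ikzf3 mRNA was lower (10.98 against 11.63), so gene-level mRNA alone does not show the loss of both factors, and KO stands for the libraries labelled KO. The study reports that the deletion was checked by western blot in clones grown from single cells. All 12 B-lineage markers were in the table. Of the defining T and NK cell markers Cd3d, Cd3e, Cd3g, Cd4, Cd8a, Cd8b1 and Ncr1 were not in the table, and 0 of 8 erythroid and megakaryocyte markers were. Of 10 myeloid markers, only Itgam and Lyz2 were.

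On GRCm38, with positions from GENCODE vM21, Jun (ENSMUSG00000052684) lies at chr4:95049034-95052222 on the minus strand, Junb at chr8:84974484-84978718 on the minus strand and Jund at chr8:70698949-70700616 on the plus strand, each as 1 exon. Klf2 lies at chr8:72319033-72321656 on the plus strand and Klf6 at chr13:5861482-5870394 on the plus strand. Thus 3 of the 10 genes are on chromosome 8. Junb overlaps Prdx2 and Jund overlaps Gm11175, both on the opposite strand, and Jun overlaps the antisense gene Junos, for which the table has no row. Whether reads were counted by strand is not stated, and the partners' values are given beside the results they touch.

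The promoters of Jun and Klf6 are shown because both genes fell in KO cells and because the same 8 letters, TGACATCA, occur in each. Junb is shown beside them as the JUN gene that rose in KO cells. Each line gives the 250 bases before the RefSeq start on GRCm38.p6 in the direction of the gene, with motif matches in capitals.
Jun promoter: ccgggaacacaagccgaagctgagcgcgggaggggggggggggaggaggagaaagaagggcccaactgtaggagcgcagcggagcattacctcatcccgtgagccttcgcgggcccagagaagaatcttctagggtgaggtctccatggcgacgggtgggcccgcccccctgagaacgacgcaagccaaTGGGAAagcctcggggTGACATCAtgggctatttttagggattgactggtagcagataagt
Klf6 promoter: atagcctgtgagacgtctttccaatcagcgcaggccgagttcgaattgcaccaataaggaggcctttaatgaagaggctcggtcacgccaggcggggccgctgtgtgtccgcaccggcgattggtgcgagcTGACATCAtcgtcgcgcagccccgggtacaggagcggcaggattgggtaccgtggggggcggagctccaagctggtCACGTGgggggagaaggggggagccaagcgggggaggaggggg
Junb promoter: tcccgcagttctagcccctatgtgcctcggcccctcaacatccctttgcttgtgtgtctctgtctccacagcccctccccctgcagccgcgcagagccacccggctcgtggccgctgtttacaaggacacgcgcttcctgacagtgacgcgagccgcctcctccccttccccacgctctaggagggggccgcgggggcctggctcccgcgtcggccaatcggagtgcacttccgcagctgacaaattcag
The windows are chr4:95052223-95052472 (minus strand), chr13:5861239-5861488 (plus strand) and chr8:84978749-84978998 (minus strand). Windows of 9 of the 10 genes, all but Egr1, were searched on both strands. TGACNTCA, the form of the AP-1 and CREB element bound by JUN and ATF dimers, was found in Jun (bases 45 to 38 before the start) and in Klf6 (bases 119 to 112), and in 7.49% of 32851 windows. It was not found in the window of Jund, which also fell in KO cells. TGGGAA, a longer form of the core that Ikaros binds, was found in Jun (bases 61 to 56) and in Jund (bases 187 to 182), and in 21.6% of all windows. The study gives the core as GGGAA, which was not searched by itself. GGGAA also stands in lower case elsewhere in the Jun window and, on the other strand, in the Junb window. The E-box CACGTG was found in Klf6 (bases 43 to 38) and in 6.02% of all windows. Neither the 7-letter AP-1 element TGANTCA (6.75% of all windows) nor CTTTGA, a core of the TCF and LEF element (13.8%), was found in any of the 9 windows. These motifs do not overlap in the windows shown. The RefSeq start of Jund lies 1210 bases upstream of its GENCODE start. Its window therefore does not hold the bases just before the GENCODE start, and it is not printed. A match is a description of the letters and was not tested as a bound site.

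The 3 JUN genes did not move together. Jund, which encodes the member that is often present in resting cells, was at 12.38, 12.27 and 12.32 in ERT2 WT libraries and at 12.03, 12.02 and 11.96 in Cre-ERT2 WT libraries. In KO cells it was at 11.70, 11.69 and 11.66 with ERT2 and at 11.37, 11.41 and 11.33 with Cre-ERT2. The 4 groups did not overlap at any point, with the ERT2 WT libraries highest and the Cre-ERT2 KO libraries lowest. Jund fell by 0.32 upon β-catenin stabilization in WT cells (SE 0.031, limma adjusted p 2.39e-05) and by 0.32 in KO cells (limma adjusted p 1.74e-05). It was 0.64 lower in KO than in WT cells, on the log2 scale, both with ERT2 (limma adjusted p 1.92e-09) and with Cre-ERT2 (limma adjusted p 1.89e-09). On the unlogged scale the Cre-ERT2 WT mean was 80.1% of the ERT2 WT mean, the ERT2 KO mean 64.2% and the Cre-ERT2 KO mean 51.5%. Among all genes, ordered from the most negative difference, Jund stood at rank 34 for β-catenin in WT cells and rank 29 in KO cells, and at ranks 224 and 238 for the KO differences. The β-catenin effect in KO cells minus that in WT cells was 0.00072 (95% interval -0.094 to 0.095, limma adjusted p 0.997), an interval that leaves room for a difference of that size in either direction. Its opposite-strand partner Gm11175 was lower in KO than in WT cells with ERT2 (-0.080, limma adjusted p 0.000626) and with Cre-ERT2 (-0.066, limma adjusted p 0.00241). Gm11175 was not called for either β-catenin difference.

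Jun, the founding member of the family, was at 10.79, 10.81 and 10.79 in ERT2 WT libraries and at 10.61, 10.54 and 10.53 in Cre-ERT2 WT libraries. KO cells held it at 10.21, 10.11 and 10.14 with ERT2 and at 10.17, 10.06 and 9.96 with Cre-ERT2. All WT libraries were above all KO libraries and the WT groups were apart, whereas the KO groups overlapped. Jun fell by 0.24 upon β-catenin stabilization in WT cells (SE 0.046, limma adjusted p 0.00488). In KO cells the difference was -0.093 (limma adjusted p 0.239), which was called in 1 of 19 alternatives, without Cre-ERT2 KO replicate 1 (-0.15, limma adjusted p 0.0335). The β-catenin effects in the 2 backgrounds differed by 0.15 (95% interval 0.0029 to 0.29, limma adjusted p 0.278), so a weaker fall in KO cells was not established. Jun was lower in KO cells by 0.64 with ERT2 (-0.64, limma adjusted p 1.02e-07) and by 0.50 with Cre-ERT2 (-0.50, limma adjusted p 1.16e-06).

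Junb went the other way between KO and WT cells and the same way with β-catenin. It was at 9.27, 9.24 and 9.27 in ERT2 WT libraries and at 9.16, 9.21 and 9.09 in Cre-ERT2 WT libraries. Values in KO cells were 9.68, 9.64 and 9.64 with ERT2 and at 9.44, 9.50 and 9.48 with Cre-ERT2. The ERT2 KO libraries were highest, the Cre-ERT2 WT libraries were lowest, and no neighbouring groups overlapped. Junb rose by 0.39 in KO against WT cells with ERT2 (SE 0.032, limma adjusted p 2.93e-07) and by 0.32 with Cre-ERT2 (limma adjusted p 2.03e-06), to 131.3% and 115.8% of the ERT2 WT level. It fell by 0.18 upon β-catenin stabilization in KO cells (limma adjusted p 0.00225). In WT cells it fell by 0.11 (limma adjusted p 0.0463), a call close to the threshold that was kept in 6 of 19 alternatives and that, with single libraries left out, was kept only without Cre-ERT2 WT replicate 2 or without Cre-ERT2 KO replicate 1 (limma adjusted p 0.0238 to 0.176 over the 12). The difference between backgrounds was -0.074 (95% interval -0.17 to 0.023, limma adjusted p 0.446). Prdx2, a peroxiredoxin gene on the opposite strand at Junb, was higher in KO cells by 0.25 with ERT2 (limma adjusted p 5.59e-05) and by 0.19 with Cre-ERT2 (limma adjusted p 0.000524). Its part in the values of Junb was not tested, and for β-catenin it went the other way without being called (0.092 in WT cells, limma adjusted p 0.123, and 0.033 in KO cells, limma adjusted p 0.629).

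**Figure D1:**
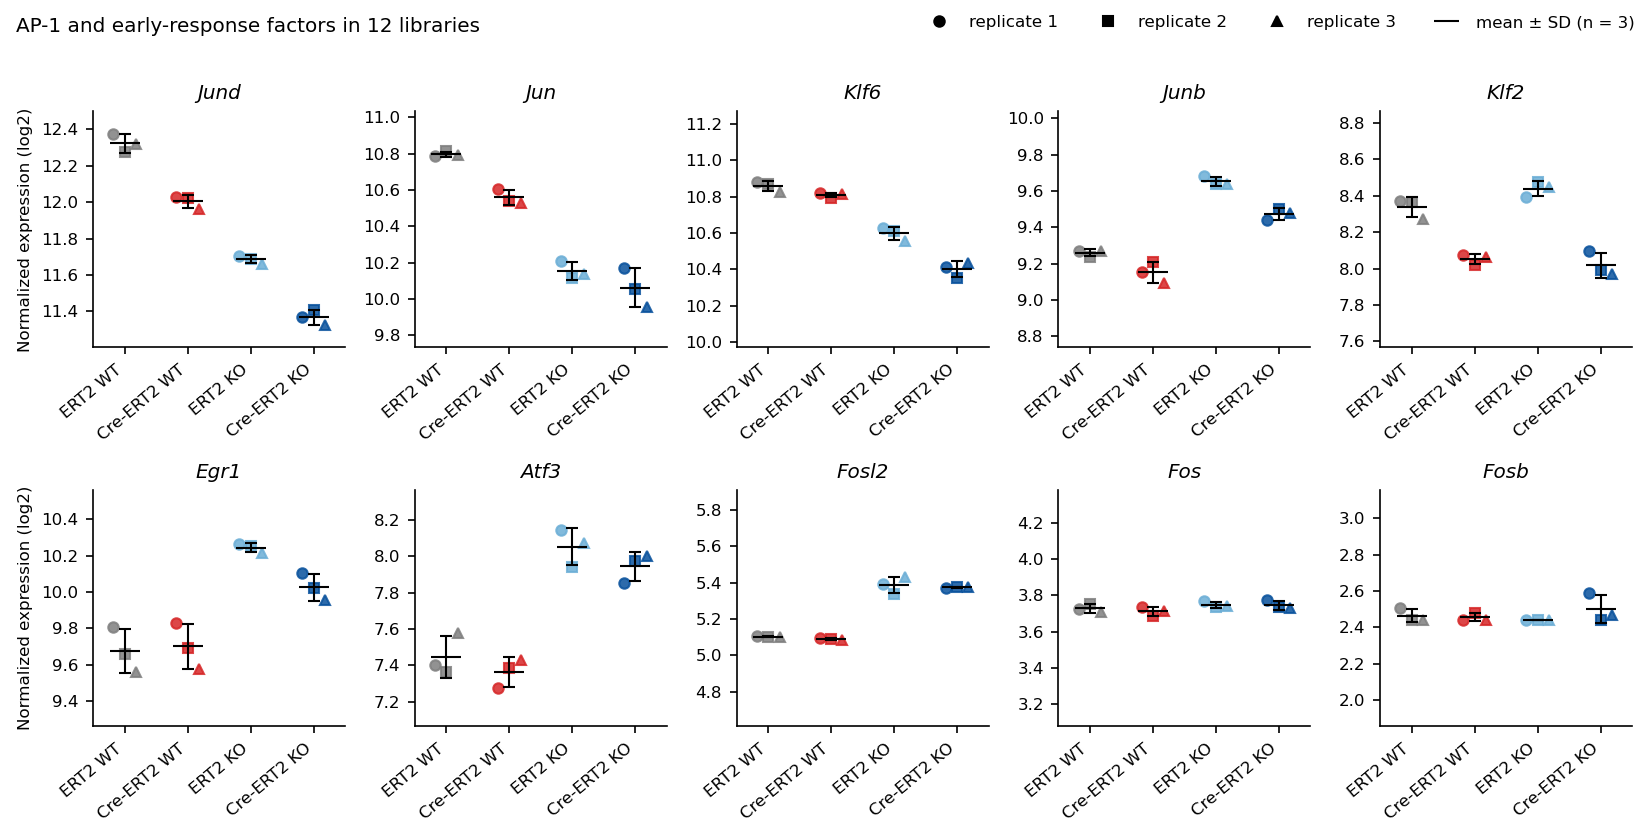
Normalized log2 expression (y axis, 1 scale per gene) of the 10 genes in the 4 groups (x axis), with 1 point per library, a marker per replicate number, and bars for the mean ± SD (n = 3). Jund and Klf6 step down through 4 groups that do not overlap, Junb, Egr1, Atf3 and Fosl2 are higher in both KO groups, and Fos and Fosb stay within 0.088 and 0.14 over all libraries.

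The FOS genes, whose proteins need a JUN partner to bind DNA, were near the lower end of the table. Fosl2, which encodes FRA2, was at 5.10, 5.10 and 5.10 in ERT2 WT libraries and at 5.10, 5.09 and 5.09 in Cre-ERT2 WT libraries. In KO cells it was at 5.39, 5.34 and 5.43 with ERT2 and at 5.37, 5.38 and 5.38 with Cre-ERT2. All 6 KO libraries were above all 6 WT libraries, and the KO groups overlapped. Fosl2 rose by 0.28 in KO cells with ERT2 (SE 0.020, limma adjusted p 8.98e-08) and by 0.28 with Cre-ERT2 (limma adjusted p 8.73e-08). β-catenin differences were -0.012 in WT cells (limma adjusted p 0.790) and -0.012 in KO cells (limma adjusted p 0.769).

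Fos was between 3.68 and 3.77 and Fosb between 2.44 and 2.59 in all 12 libraries, and neither was called in any of the 5 contrasts. In 8 of the 12 libraries Fosb was within 0.001 of its lowest value. Fos was at 3.72, 3.75 and 3.71 in ERT2 WT, 3.74, 3.68 and 3.71 in Cre-ERT2 WT, 3.77, 3.73 and 3.74 in ERT2 KO and 3.77, 3.73 and 3.73 in Cre-ERT2 KO libraries. All neighbouring groups of both genes overlapped. Fos, Fosb and Fosl2 were all in the lowest 25% of genes by mean (below 6.66). The transformation behind the log2 values is not stated, and differences of genes this weak may be understated, as may the spread of Fosl2 within groups (SD 0.0021 to 0.046). A change of Fos or Fosb was not detectable here.

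Atf3, a stress-induced bZIP factor that pairs with JUN proteins and often represses, was at 7.40, 7.36 and 7.58 in ERT2 WT libraries and at 7.27, 7.39 and 7.43 in Cre-ERT2 WT libraries. KO cells held it at 8.14, 7.94 and 8.07 with ERT2 and at 7.86, 7.97 and 8.004 with Cre-ERT2. All KO libraries were above all WT libraries, and within each background the vectors overlapped. Atf3 rose by 0.61 in KO cells with ERT2 (SE 0.067, limma adjusted p 5.65e-06), to 152.2% of the ERT2 WT level, and by 0.58 with Cre-ERT2 (limma adjusted p 8.08e-06). Upon β-catenin stabilization it differed by -0.084 in WT cells (limma adjusted p 0.498) and by -0.11 in KO cells (limma adjusted p 0.351), and neither was called.

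Egr1, a zinc finger activator downstream of ERK signaling, was at 9.81, 9.66 and 9.56 in ERT2 WT libraries and at 9.83, 9.69 and 9.58 in Cre-ERT2 WT libraries. Values in KO cells were 10.26, 10.25 and 10.22 with ERT2 and at 10.10, 10.02 and 9.96 with Cre-ERT2. The WT groups overlapped, both KO groups were above them, and the KO groups were apart with ERT2 higher. Egr1 rose by 0.57 in KO cells with ERT2 (SE 0.067, limma adjusted p 9.96e-06) and by 0.33 with Cre-ERT2 (limma adjusted p 0.000989), to 148.2% and 127.5% of the ERT2 WT level. The β-catenin difference was 0.024 in WT cells (limma adjusted p 0.883) and -0.22 in KO cells (limma adjusted p 0.0533). The latter was just above the threshold and was called in 9 of 19 alternatives, among them those without replicate 1 or 3 of ERT2 WT or of Cre-ERT2 WT (limma adjusted p 0.00397 to 0.158 over the 19). The effects differed between backgrounds by -0.24 (95% interval -0.45 to -0.036, limma adjusted p 0.203), which was not called, and was called in 1 of 18 alternatives (limma adjusted p 0.0336 to 0.365).

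Klf2 was lower with β-catenin in both backgrounds. It was at 8.37, 8.37 and 8.27 in ERT2 WT libraries and at 8.08, 8.02 and 8.06 in Cre-ERT2 WT libraries. In KO cells it was at 8.39, 8.48 and 8.45 with ERT2 and at 8.10, 7.99 and 7.97 with Cre-ERT2. The Cre-ERT2 libraries of both backgrounds overlapped each other and were below all ERT2 libraries. Klf2 fell by 0.28 upon β-catenin stabilization in WT cells (SE 0.040, limma adjusted p 0.000542) and by 0.42 in KO cells (limma adjusted p 1.60e-05). The effects differed by -0.14 (95% interval -0.26 to -0.014, limma adjusted p 0.227), which was not called. Between KO and WT cells it was 0.10 higher with ERT2 (limma adjusted p 0.0415) and differed by -0.034 with Cre-ERT2 (limma adjusted p 0.490). The first of these calls was lost when libraries were centered on their medians (0.071, limma adjusted p 0.130), after quantile normalization (0.062, limma adjusted p 0.192), and without ERT2 WT replicate 3, Cre-ERT2 WT replicate 3, ERT2 KO replicate 2 or ERT2 KO replicate 3 (0.072 to 0.10).

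Klf6, a zinc finger factor related to KLF2, stepped down like Jund. It was at 10.88, 10.87 and 10.82 in ERT2 WT libraries and at 10.82, 10.79 and 10.81 in Cre-ERT2 WT libraries. KO cells held it at 10.63, 10.61 and 10.56 with ERT2 and at 10.41, 10.35 and 10.44 with Cre-ERT2. The groups did not overlap, although those of WT cells were close. Klf6 was lower in KO than in WT cells by 0.26 with ERT2 (-0.26, SE 0.028, limma adjusted p 4.79e-06) and by 0.41 with Cre-ERT2 (-0.41, limma adjusted p 6.21e-08). Upon β-catenin stabilization it fell by 0.20 in KO cells (limma adjusted p 0.000465), and in WT cells the difference was -0.050 (limma adjusted p 0.309). The difference between these effects was -0.15 (95% interval -0.23 to -0.062, limma adjusted p 0.0575). It was not called, and was called in 3 of 18 alternatives, of which 2 left out ERT2 KO replicate 3 (limma adjusted p 0.0462) or Cre-ERT2 KO replicate 3 (limma adjusted p 0.0372). The Cre-ERT2 KO mean was 72.9% of the ERT2 WT mean.

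**Figure D2:**
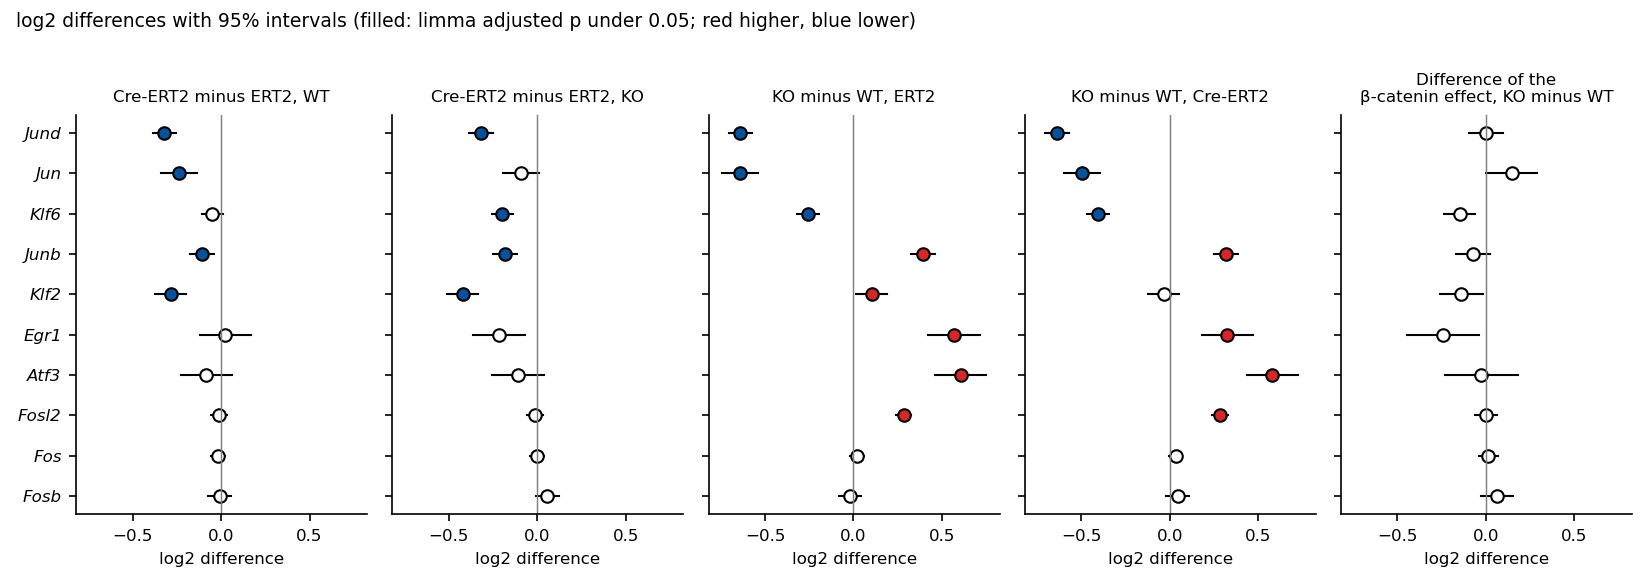
log2 differences (x axis) of the 10 genes (rows) in the 4 comparisons and in the difference of the β-catenin effect, with 95% intervals. Filled points passed a limma adjusted p under 0.05 (red higher, blue lower), the β-catenin columns hold only falls among them, the KO columns hold both directions, and the last column holds no filled point.

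The first comparison asked how these genes responded to stabilized β-catenin when Ikaros factors were unedited. The 10 genes had been chosen with earlier results of these data known, so their shares and medians describe this set only. In WT cells 4 of the 10 genes were called, where 11.9% of all genes were. None of the 10 was higher (5.93% of all genes) and 4 were lower (5.95% of all genes), namely Jund, Klf2, Jun and Junb. The median difference of the 10 genes was -0.067, against 2.18e-05 over all genes. In KO cells 4 of the 10 were called, where 12.6% of all genes were, with 0 higher (7.27% of all genes) and 4 lower (5.33% of all genes), namely Klf2, Jund, Klf6 and Junb. The median of the 10 was -0.14, against -0.00041 over all genes. The exact two-sided permutation test of 3 against 3 libraries cannot go below p = 0.1, which it reached in both backgrounds for Jund, Klf2, Junb and Klf6, although Klf6 was not called by limma in WT cells. The WT and KO comparisons of β-catenin share no library, but both use the same estimate of the spread, from a fit of all libraries. For the KO minus WT difference of these effects, no gene of the 10 was called, where 4.53% of all genes were, and at an unadjusted p under 0.05 there were 4, namely Klf6, Egr1, Klf2 and Jun, where 17.3% of all genes were. The intervals of these differences, given above, do not show that the backgrounds acted alike.

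**Figure D3:**
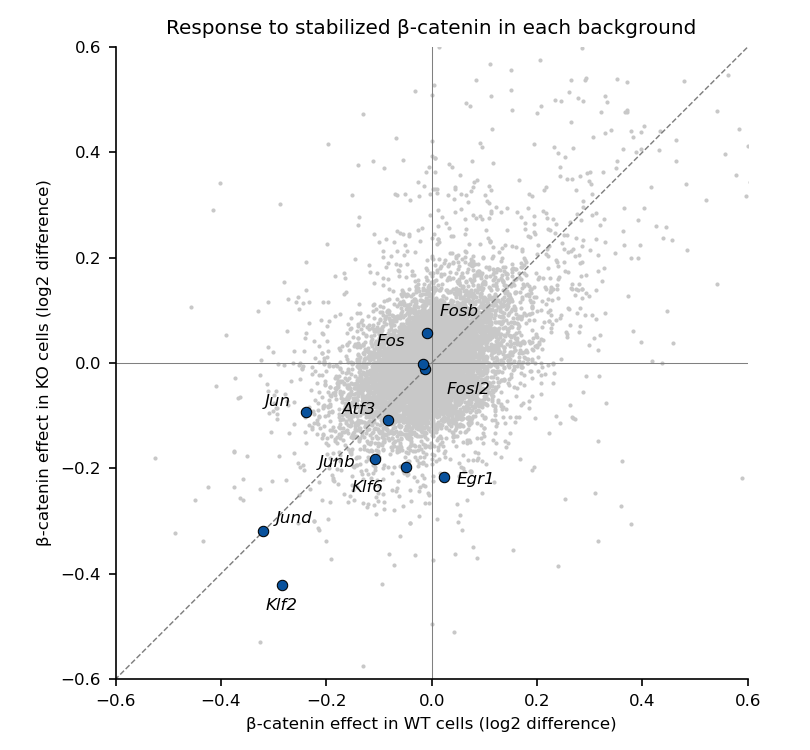
β-catenin effect in KO cells (y axis) against that in WT cells (x axis), both as log2 differences between Cre-ERT2 and ERT2 libraries, for the 10 genes (blue) and all other genes (grey), with 65 genes outside the plotted range and the dashed line marking equal effects. Jund lies on the line at -0.32, Klf2 below it at -0.28 and -0.42, and the highest values of the 10 are 0.024 (Egr1, WT cells) and 0.057 (Fosb, KO cells).

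The second comparison asked how these genes differed between edited and unedited cells. With ERT2, 8 of the 10 genes were called, where 59.0% of all genes were. Of these, 5 were higher (29.8% of all genes), Atf3, Egr1, Junb, Fosl2 and Klf2, and 3 were lower (29.3% of all genes), Jun, Jund and Klf6. With Cre-ERT2, 7 were called, where 58.9% of all genes were. Atf3, Junb, Egr1 and Fosl2 were higher, 4 of the 10 (30.4% of all genes), and Jund, Jun and Klf6 were lower, 3 of the 10 (28.6% of all genes). Medians of the 10 genes were 0.061 with ERT2 and 0.039 with Cre-ERT2, near the medians of all genes (0.0016 in both). The comparisons with ERT2 and with Cre-ERT2 share no library, but they use the same estimate of the spread. Each also shares libraries with both β-catenin comparisons. More than 1 in 2 genes of the table passed this threshold, so the shares of these genes called in either direction are close to the background or moderately above it. The directions were mixed, as they were over all genes. With both vectors Jun, Jund and Klf6 were lower and Junb, Atf3, Fosl2 and Egr1 higher.

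Marker levels differed between KO and WT libraries as well. The summed unlogged level of the 12 B-lineage markers was 123032 to 124027 in ERT2 WT and 93724 to 93805 in ERT2 KO libraries, and 120598 to 123094 and 90280 to 91493 with Cre-ERT2. With ERT2, 8 of the 12 were called lower in KO than in WT cells (29.3% of all genes), led by Dntt (-0.87) and Cd79a (-0.79). Another 2 were called higher (29.8% of all genes), Rag2 (0.38) and Rag1 (0.32). B-lineage markers also differed with β-catenin, where 6 of the 12 were called lower and 2 higher in each background. Over all genes, 5.95% were lower and 5.93% higher in WT cells, and 5.33% and 7.27% in KO cells. The median of the 12 markers for β-catenin was -0.11 in WT and -0.077 in KO cells. The summed level of the 2 myeloid markers in the table was 194 to 196 in ERT2 WT, 350 to 370 in ERT2 KO, 189 to 194 in Cre-ERT2 WT and 401 to 433 in Cre-ERT2 KO libraries, with Lyz2 higher (0.99) and Itgam lower (-0.15) in KO than in WT cells with ERT2. That of 3 T and NK cell markers was 1774 to 1820 in ERT2 WT and 934 to 1021 in ERT2 KO libraries, and 1581 to 1632 and 912 to 936 with Cre-ERT2. Among these Cd2 was lower (-1.58 with ERT2 and -1.43 with Cre-ERT2) and Nkg7 was higher in KO cells (2.03 and 1.90). The part of these markers in the KO and β-catenin differences of the 10 genes was not tested. Fewer cells of a type and less RNA per cell cannot be told apart in these bulk libraries. Early-response genes can also be induced by cell handling, for which 9 heat-shock genes were read. Their summed level was 243868 to 247297 in ERT2 WT and 232422 to 236124 in Cre-ERT2 WT libraries, and 258152 to 259928 and 251761 to 260026 in KO cells. Their part in the results was not tested.

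Jund, Junb and Klf6 were set beside the other genes of the table by the likeness of their values over the 12 libraries, among 1652 genes with an SD of at least 0.2. Most like Jund were Erg, an ETS factor (r = 0.991), Rasgrp2, an activator of RAP1 (r = 0.989), and Vpreb2, a part of the surrogate light chain of the pre-B cell receptor (r = 0.985). Erg fell through the groups as Jund did, from 10.31 in ERT2 WT to 10.12 in Cre-ERT2 WT, 9.88 in ERT2 KO and 9.68 in Cre-ERT2 KO libraries. Most like Junb were Zmiz1 (r = 0.989), the amino acid transporter gene Slc7a5 (r = 0.986) and Gars, a glycyl-tRNA synthetase gene (r = 0.984). Slc7a5 stood at 13.21 and 13.07 in WT and at 13.85 and 13.61 in KO cells, with ERT2 and Cre-ERT2. Most like Klf6 were Slc14a1 (r = 0.984), the ETS factor gene Ets2 (r = 0.984) and Gfod1 (r = 0.981). Among the 10 genes, Jund had r = 0.963 with Jun, 0.958 with Klf6 and -0.64 with Junb, and Junb had r = 0.941 with Atf3. The points of these correlations are 12 libraries in 4 groups, so the values describe the shared group pattern.

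The dimer partners and relatives of AP-1 were read from a list of 27 bZIP genes, of which 22 were in the table. Of these, 27.3% were called for β-catenin in each background, where 11.9% (WT) and 12.6% (KO) of all genes were. For KO against WT, 77.3% were called with ERT2 and 68.2% with Cre-ERT2, where 59.0% and 58.9% of all genes were. For β-catenin in WT cells 3 were higher and 3 lower, with a list median of -0.010. Batf, a lymphocyte AP-1 factor, rose by 0.27 and Atf6, a sensor of endoplasmic reticulum stress, by 0.12, while Cebpb fell by 0.61 and Nfe2l2, the gene of the antioxidant factor NRF2, by 0.19. In KO cells 3 were higher, including Atf6 (0.18) and Batf (0.14), and 3 lower, including the stress response factors Atf4 (-0.20) and Ddit3 (-0.19). Between KO and WT cells with ERT2, 11 were higher, including Atf4 (0.48) and Batf (0.29), and 6 lower, including Cebpb (-0.59) and Nfe2l2 (-0.48). With Cre-ERT2, 9 were higher, including Atf4 (0.38) and Atf5 (0.38), and 6 lower, including the small MAF gene Mafk (-0.46) and Nfe2l2 (-0.35). Unlike the 10 genes, this list held calls in both directions for β-catenin in either background, a contrast of counts that was not tested.

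Upstream of these genes stand MAP kinases and the factors they act on, of which 30 of 32 listed genes were in the table. For β-catenin 10% were called in WT cells (11.9% of all genes) and 20% in KO cells (12.6% of all genes). For KO against WT, 73.3% were called with ERT2 (59.0% of all genes) and 63.3% with Cre-ERT2 (58.9% of all genes). For β-catenin in WT cells 3 were higher, including the ETS factors Elk4 (0.27) and Elk3 (0.13) that bind early-response genes with SRF, and 0 were lower. In KO cells 3 were higher, including the kinase genes Rps6ka1 (0.24) and Mapkapk2 (0.20), and 3 lower, including the SRF coactivator gene Mkl1 (-0.17) and the ERK kinase gene Map2k1 (-0.10). Between KO and WT cells with ERT2, 13 were higher and 9 lower, led by Rps6ka1 (1.33), Map2k1 (0.48), Mkl1 (-0.42) and Mef2d (-0.38). With Cre-ERT2, 11 were higher and 8 lower, led by Rps6ka1 (1.65), Mapk9 (0.46), Mkl1 (-0.55) and Mef2d (-0.48). Rps6ka1 encodes RSK1, a kinase activated by ERK, and its differences between KO and WT cells exceeded those of each of the 10 genes.

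Other early-response genes were called in both directions with β-catenin. The share called was 23.5% in WT cells (11.9% of all genes) and 41.2% in KO cells (12.6% of all genes). For KO against WT it was 76.5% with ERT2 (59.0% of all genes) and 67.6% with Cre-ERT2 (58.9% of all genes). Of 40 listed genes 34 were in the table, and in WT cells 6 were higher, including Cd69 (0.60), an early activation antigen, and the pseudokinase gene Trib1 (0.35). There 2 were lower, the kinase genes Pim1 (-0.20) and Plk3 (-0.086), calls that were kept in 14 and 6 of 19 alternatives. In KO cells 9 were higher, including the signaling regulator gene Rgs1 (0.72) and Trib1 (0.54), and 5 lower, including Pim1 (-0.30) and the GTPase gene Rhob (-0.21). Their list medians were -0.0059 in WT and -0.0032 in KO cells. Between KO and WT cells with ERT2, 16 were higher and 10 lower, led by Bhlhe40 (1.43), Trib1 (1.14) and the antiproliferative genes Btg2 (-1.55) and Btg1 (-0.83). With Cre-ERT2, 14 were higher and 9 lower, with Trib1 at 1.33, Bhlhe40 at 1.29, Btg2 at -1.31 and Btg1 at -0.88. The summed unlogged level of the 34 genes was 31997 to 32416 in ERT2 WT and 32070 to 32821 in ERT2 KO libraries, overlapping ranges, and 32175 to 33211 in Cre-ERT2 WT and 33187 to 34043 in Cre-ERT2 KO libraries, the latter above all ERT2 libraries.

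Of 19 other KLF and SP factor genes, 12 were in the table. For β-catenin 16.7% were called in WT cells (11.9% of all genes) and 8.33% in KO cells (12.6% of all genes). For KO against WT, 50% were called with ERT2 (59.0% of all genes) and 58.3% with Cre-ERT2 (58.9% of all genes). For β-catenin 1 was higher in WT cells, Sp3 (0.15), and 1 lower, Klf16 (-0.13), and in KO cells only Klf16 was called, lower (-0.16). In KO against WT cells 3 were higher and 3 lower with ERT2, led by Klf7 (0.45), Klf9 (0.36), Sp4 (-0.45) and Klf13 (-0.16), and 3 were higher and 4 lower with Cre-ERT2, where Klf9 was at 0.29, Klf7 at 0.27, Sp4 at -0.54 and Klf13 at -0.26. Of the 9 heat-shock genes in the table, of 12 listed, 0 were higher and 3 lower for β-catenin in WT cells, including Hspd1 (-0.21) and Hspa1b (-0.11). In KO cells Dnaja1 was higher (0.15) and Hspd1 lower (-0.12). Between KO and WT cells 3 were higher and 4 lower with ERT2, and 4 higher and 4 lower with Cre-ERT2, with the mitochondrial chaperone genes Hspe1 (0.32 and 0.41) and Hspd1 (0.31 and 0.41) among the higher. The shares of heat-shock genes called were 33.3% and 22.2% for β-catenin in WT and KO cells (11.9% and 12.6% of all genes). For KO against WT they were 77.8% with ERT2 and 88.9% with Cre-ERT2 (59.0% and 58.9% of all genes).

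**Figure D4:**
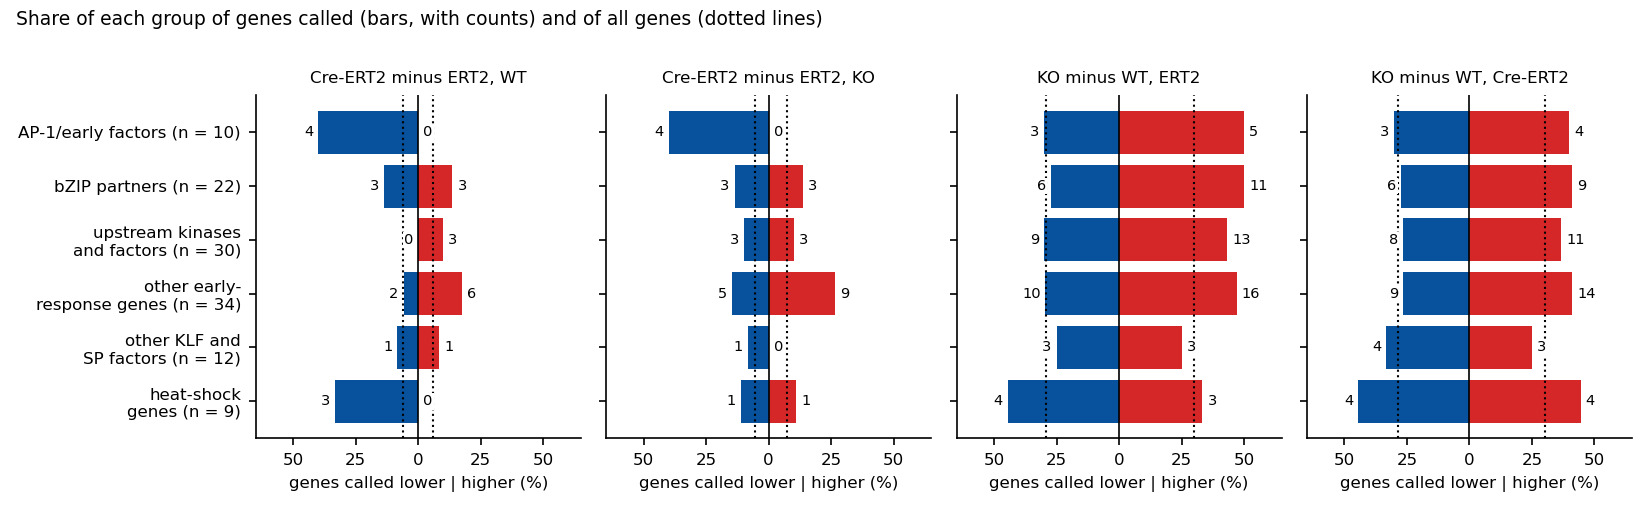
Percent of the genes in each group (rows) called lower (blue, left) or higher (red, right) in the 4 comparisons at a limma adjusted p under 0.05, with the number of genes beside each bar and dotted lines for all genes. For β-catenin the 10 AP-1 and early-response factors hold 4 lower and 0 higher calls in each background, and for KO against WT all groups hold calls in both directions.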

How the data were processed

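RNA was measured in 12 libraries, grouped by their titles. Per the labels and the study's methods, the authors prepared stranded mRNA libraries (280 ng RNA, 10 PCR cycles), used Salmon 1.4.0, STAR 2.7.6 and DESeq2 1.30.1 with mm10, and deposited log2 values normalized between libraries. The transformation, any gene filter and the use of strand are not given in the sources used here. The table holds no counts, so depth is unknown and replicates alone give the precision.

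A linear model with 4 group means was fitted to the log2 values of all 12 libraries and 12151 genes with limma 3.58.1 in R 4.3.3 (eBayes with a mean-dependent prior), with Benjamini-Hochberg adjustment over all genes and calls at an adjusted p under 0.05. The fit was tested on simulated data. Single genes were compared by an exact two-sided permutation test. The members and gene lists were chosen with earlier results of these data known. Named genes were all 10 genes of the rule, the targeted genes, the 2 largest called rises and falls per list and contrast, and the 3 genes most like Jund, Junb and Klf6. The alternatives were a replicate block, a fit to only the groups compared, median centering, quantile normalization, a constant prior, a pseudocount of 1 on unlogged values, leaving out the lowest 25% of genes by mean, leaving out each library, and an adjusted p under 0.01. Positions came from GENCODE vM21 and promoter sequences from RefSeq (GRCm38.p6).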

Additional observations from a re-analysis of the deposited data

Results flagged for a closer look

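None of the 10 AP-1 and early-response factors had a β-catenin effect that was called different between KO and WT cells. Of 104 genes in the related lists 11 did (10.6%, against 4.53% of all genes, limma adjusted p under 0.05), of which Nr4a1, Trib1 and Btg2 are named for this difference outside the naming rule, after their values were seen. The lists had been chosen with earlier results of these data known, so this share is a description. Values are the effect in KO minus that in WT cells on the log2 scale. Among bZIP factors, Cebpb differed by 0.62, with -0.61 in WT and 0.0095 in KO cells, and Ddit3 by -0.17, with -0.016 and -0.19. Among upstream kinases, Rps6ka1 differed by 0.32, with -0.087 in WT and 0.24 in KO cells, and Mapkapk2 by 0.16, with 0.047 and 0.20. Among other early-response genes, Rgs1 differed by 0.46, with 0.26 and 0.72, Zfp36l2 by 0.34, with -0.024 and 0.32, and Rhob by -0.19, with -0.019 and -0.21. In the same list, Btg2 differed by 0.24, with -0.093 and 0.15, Trib1 by 0.19, with 0.35 and 0.54, and the nuclear receptor gene Nr4a1 by 0.14, with -0.040 and 0.097. Of the heat-shock genes, Hspa8 differed by 0.15, with -0.078 and 0.074, and neither of its effects was called by itself. Some of these calls were close to the threshold. Out of 18 alternatives, that of Btg2 was kept in 5, of Hspa8 in 6 (limma adjusted p up to 0.503), of Trib1 in 9 and of Ddit3 in 13, and with 1 library left out they were lost in 10, 10, 8 and 5 of 12 fits. Among the cell type markers, Dntt differed by 0.47, with 0.30 and 0.77, Ebf1 by -0.19, with 0.11 and -0.072, and Lyz2 by 0.24, with -0.032 and 0.21. Groups of 3 libraries are too small for a search for outlying samples.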

How the results depend on the processing

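The falls of Jund and Klf2 upon β-catenin stabilization in both backgrounds, of Jun in WT cells and of Klf6 and Junb in KO cells, and the KO differences of Jund, Jun, Klf6, Junb, Atf3 and Egr1 with either vector, were called in all 19 alternatives, and those of Fosl2 in all 18 that kept it. The calls of Junb in WT cells and of Klf2 between ERT2 KO and ERT2 WT were not. Leaving out 1 library at a time, the 10 genes gave 3 to 4 calls for β-catenin in WT cells, 4 to 5 in KO cells, 7 to 8 for KO with ERT2, 7 to 8 with Cre-ERT2 and 0 to 1 for the difference of the β-catenin effect. Fos between KO and WT cells with Cre-ERT2 was called without Cre-ERT2 WT replicate 1 (limma adjusted p 0.0489), and Fosb without Cre-ERT2 KO replicate 2 (limma adjusted p 0.0485). Among β-catenin calls of the related lists, those of Pim1 and Plk3 in WT cells were lost in 5 and 10 of the 12 fits with 1 library left out, those of Elk3, Sp3 and Klf16 in WT cells in 3, 3 and 4, and those of Batf, Map2k1 and Mkl1 in KO cells in 4, 2 and 2. Replicate numbers did not pair the libraries, since 2 of 18 same-numbered pairs had a correlation of deviations over 0.1 (median -0.0055, other pairs -0.010, over 7729 genes). With a replicate block, 3 and 5 of the 10 genes were called for β-catenin in WT and KO cells, 8 and 7 for KO, and 1 for the difference (Egr1, -0.24, limma adjusted p 0.0336, which was also called for β-catenin in KO cells, -0.22, limma adjusted p 0.00397), and 1361, 1374, 7089, 7108 and 424 of all genes. With a constant prior 1 of the 10 was called for the difference (Klf6, limma adjusted p 0.0470). Over all genes, 934 were called for β-catenin in KO cells from those groups alone, where 1531 were called with all libraries, and an adjusted p under 0.01 left 787 and 790 for β-catenin in WT and KO cells and 240 for the difference. Signs turned only for values near 0 that were not called. These were Fos between KO and WT cells with ERT2 (-0.013 after median centering), the difference of the β-catenin effect for Jund (-0.00078 after median centering, -0.0052 after quantile normalization and -0.025 to 0.026 with 1 library left out), and, with 1 library left out, that difference for Atf3 (-0.090 to 0.020) and Fosl2 (-0.024 to 0.021), and the β-catenin effects of Fosb in WT (-0.020 to 0.012), Egr1 in WT (-0.039 to 0.090), Fos in KO (-0.016 to 0.0082) and Fosl2 in KO cells (-0.036 to 0.0089). The cause was not tested. The fit to only the groups compared gives no value for the difference, and leaving out the lowest 25% of genes by mean removes Fos, Fosb and Fosl2. Limits are set by 3 libraries a group of unstated independence and by an unknown depth.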

Other observations

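The values of Egr1 had the same order by replicate number in every group. In each of the 4 groups the library numbered 1 had the highest value and the library numbered 3 the lowest, from 9.81 to 9.56 in ERT2 WT, 9.83 to 9.58 in Cre-ERT2 WT, 10.26 to 10.22 in ERT2 KO and 10.10 to 9.96 in Cre-ERT2 KO libraries. This held for 10 of 12151 genes (0.0823%), for 1 of the 10 AP-1 and early-response factors and for 0 of the 34 other early-response genes. A shared order of any kind was found for 52 of all genes. Such orders also arise by chance, Egr1 was named after its values were seen, and a link to the number was not tested. What the numbers stand for is not stated.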
